A study of Mus musculus with 7 samples.

Results

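The p53 target genes described here are 33 mouse genes that the transcription factor p53 is known to activate, and their levels were read in 7 libraries of day 4 embryoid bodies. The members were taken by symbol from a fixed list, matched to NCBI mouse gene numbers, and kept where a number had a row of its own. All 33 of 33 were found among 24990 features. p53, encoded by Trp53, is held low in unstressed cells by the ubiquitin ligase MDM2 and builds up after DNA damage, nucleolar stress or oncogene activity. It then binds short DNA elements near its targets, whose products halt the cell cycle, repair DNA, adjust metabolism or start apoptosis. Some targets, Mdm2 first among them, act back on p53 and close a feedback loop.

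Embryoid bodies are aggregates formed by embryonic stem cells when they differentiate in suspension, here from the R1 line, seeded as hanging drops of 500 cells and collected on day 4. The study perturbed Meteor, a long non-coding RNA locus that its title links to levels of the T-box gene Eomes. By title, 2 libraries were wild type (WT1 and WT2), 2 lacked the Meteor promoter (pKO1 and pKO2) and 1 carried that promoter inverted (pInv). The remaining pair was an empty-vector control (Ctrl) and a CRISPR knockdown of Meteor (KD), given as Cas9 in the series' design and as dCas9 in the sample field. The labels' genotype field goes against the title in 5 of these 7 libraries: it names both WT libraries as promoter knockouts, pKO1 as the inversion, and pKO2 and pInv as wild type. Groups follow the titles here. Both labels name Ctrl and KD alike, and directions among WT, pKO and pInv are those of the titles, many of which turned under the genotype field. Whether libraries of 1 group came from separate cultures or clones is not given in the sources used here, so the p-values rest on a spread between libraries that may be technical.

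Totals ran from 1898350 (WT2) to 2564478 (WT1) expected counts, of which 12.9% (pInv) to 24.1% (WT2) fell on the 45S ribosomal RNA precursor. All 7 pluripotency markers and all 6 primitive streak markers were detected in every library, the latter at a sum of 483 CPM (counts relative to the scaled size of the library) in WT2 and 820.3 to 1110.1 elsewhere. Pluripotency markers summed to 2400 CPM in WT2, 1173 in KD and 1539 to 1911 in the other 5. Definitive endoderm markers summed to 90.0 CPM in WT2, where Cxcr4 and Sox17 were at 0, to 172 in pInv and to 268 to 381 in the other 5. Summed mesoderm markers ran from 17.4 CPM in WT2 to 372 CPM in KD. In RNA of whole embryoid bodies, fewer cells of a type and less RNA per cell cannot be told apart. Feeder fibroblast markers summed to 3.05 to 7.2 CPM. Macrophage markers summed to 1.02 to 1.88 CPM in 6 libraries and to 221 CPM in KD. WT2 stood apart: 25.7% of 10265 tested genes differed by 2-fold or more between WT1 and WT2, against 14.0% between pKO1 and pKO2.

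Stretches upstream of 4 members are shown. Cdkn1a, Ccng1 and Bax hold a full site of the p53 consensus, and Mdm2, always named here, holds a half-site. Other members with a half-site alone are not shown. RefSeq promoter windows of GRCm38.p6, from 250 bases before to 50 bases after the transcript start, matched 25 of the 33 members. The p53 half-site consensus is a 10-base motif that reads alike on both strands, and a full site was taken as 2 half-sites at most 1 base apart, with the C and G of each core kept and at most 2 mismatches. Capitals mark the match, and each stretch ends before the transcript start. Cdkn1a, at chr17:29090888-29090978 on the plus strand, holds a full site from 51 to 32 bases before the start of that window's transcript. The window of its other transcript start holds neither a half-site nor a full site. Ccng1, at chr11:40755422-40755521 on the minus strand, holds one from 195 to 176 bases before it. Bax, at chr7:45467039-45467139 on the minus strand, holds one from 201 to 181 bases before it, with a spacer of 1 base. Mdm2, at chr10:117710895-117710984 on the minus strand, holds 1 exact half-site, from 186 to 177 bases before the start.
Cdkn1a: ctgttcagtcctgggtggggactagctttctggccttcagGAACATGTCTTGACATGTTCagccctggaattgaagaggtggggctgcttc
Ccng1: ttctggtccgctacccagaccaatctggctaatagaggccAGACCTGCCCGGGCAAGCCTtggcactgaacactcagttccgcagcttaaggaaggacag
Bax: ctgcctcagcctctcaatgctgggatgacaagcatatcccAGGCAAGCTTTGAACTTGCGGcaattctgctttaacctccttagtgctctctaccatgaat
Mdm2: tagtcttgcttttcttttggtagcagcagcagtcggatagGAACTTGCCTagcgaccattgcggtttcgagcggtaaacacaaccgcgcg

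An exact half-site stood in the windows of 10 of the 25 members (40%), against 9.55% of all 27025 genes in the table. A full site stood in 3 of 25 (12.0%), against 0.807% of all genes. With at most 1 mismatch the full sites of Cdkn1a and Ccng1 were left, 8.0% of members against 0.13% of all genes. The members were listed as known p53 targets, so these shares describe the list and are no test of it.

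Of the 33 members, 28 had enough reads to be tested, which took about 10 counts in at least 1 library. The other 5 were Pidd1, an adaptor of caspase activation, at 0 counts in every library; the death receptor gene Fas, at 1 count in WT1 and 0 elsewhere; Rrm2b, a ribonucleotide reductase subunit; Plk3, a stress-activated kinase; and Sesn1, a sestrin. The limit set by a count of 0 was 1.12 CPM in WT1, the deepest library, and 1.80 CPM in WT2, the shallowest. Rrm2b ran from 0 to 2.40 CPM, Plk3 from 0.60 to 4.16 CPM and Sesn1 from 0.849 to 3.34 CPM. At these levels differences in the 5 were not detectable. Among the 28, Tnfrsf10b reached the limit in pInv alone (17 counts, 1 to 7 elsewhere) and Plk2 in pKO1 alone. Tests of either in the library that admitted it are therefore not given. In each comparison the numbers of members higher and lower are given also for the other 26.

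Among the feedback genes, Mdm2 (NCBI gene 17246) had 78.7 CPM in WT1 and 51.0 in WT2, 88.9 in pKO1 and 62.4 in pKO2. It had 137 CPM in pInv, 82.2 in Ctrl, and 81.3 in the KD library. The pInv library was above the other 6, and the WT and pKO libraries overlapped. Ppm1d, the phosphatase WIP1 that switches p53 signalling off, ran from 17.2 CPM in pKO2 to 31.9 in WT1, with pInv at 31.8. The WT libraries held 21.0 and 18.0 CPM of Trp53inp1 (NCBI gene 60599), a nuclear cofactor of p53, the pKO libraries 36.8 and 27.1, pInv 25.5, Ctrl 30.5 and KD 27.2. Both WT libraries were the lowest of the 7. Ccng1 (NCBI gene 12450), cyclin G1, which recruits a phosphatase to MDM2, had 58.5 CPM in WT1 and 104 in WT2. Its other libraries, at 81.7 and 68.9 (pKO), 72.1 (pInv), 63.5 (Ctrl) and 65.1 CPM (KD), lay within that span.

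**Figure D1:**
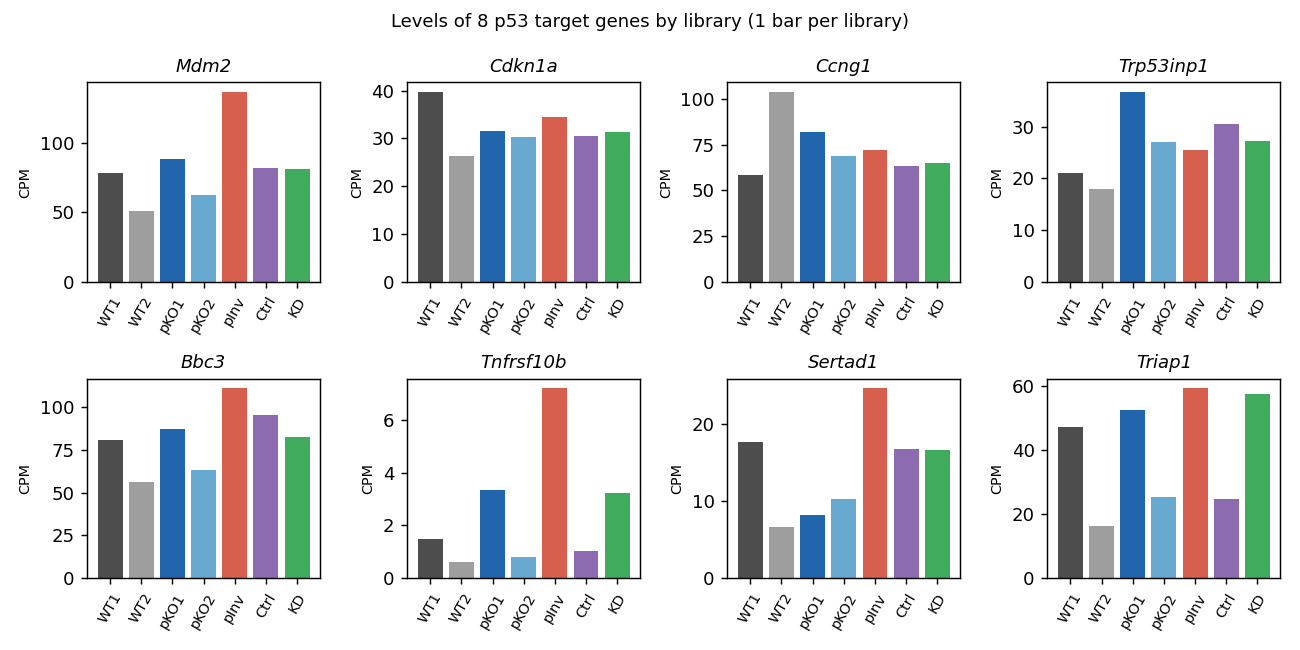
Levels in CPM (y axis, starting at 0) of 8 p53 target genes, 1 bar per library in the order WT1, WT2, pKO1, pKO2, pInv, Ctrl, KD. Mdm2, Bbc3, Tnfrsf10b, Sertad1 and Triap1 are highest in pInv, while Cdkn1a stays between 26.4 and 39.7 CPM. Tnfrsf10b reached the filter on low counts in pInv alone.

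Among genes of growth arrest, Cdkn1a (NCBI gene 12575), which encodes the cyclin-dependent kinase inhibitor p21, had 39.7 CPM in WT1 and 26.4 in WT2, against 31.5 and 30.4 in the pKO libraries, 34.4 in pInv, 30.5 in Ctrl and 31.4 in the KD library. Its highest library stood 1.5-fold above its lowest, and those were the WT pair. The WT libraries held 17.6 and 6.6 CPM of Sertad1 (NCBI gene 55942), a regulator of cyclin D kinase activity, the pKO libraries 8.12 and 10.3, pInv 24.6, Ctrl 16.8 and KD 16.6. The pInv library was the highest and WT2 the lowest. Btg2, an antiproliferative cofactor of mRNA deadenylation, ran from 14.4 CPM in pKO2 to 25 in pInv, with KD at 24.0. Gadd45a (NCBI gene 13197), a stress sensor that binds PCNA, was at 35.6 to 50.5 CPM in 6 libraries and at 22.6 in KD. The kinase Plk2 ran from 1.23 CPM in pKO2 to 5.73 in pKO1.

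Apoptosis and survival genes formed the largest role group, 14 members of which 12 were tested. Bbc3 (NCBI gene 170770), which encodes the BH3-only protein PUMA, had 81.0 CPM in WT1 and 56.4 in WT2, 87.4 in pKO1 and 63.6 in pKO2. Its level was 111 CPM in pInv, 95.4 in Ctrl and 82.7 in the KD library. Bax, the pore-forming effector, had 7.12 and 15.6 CPM in the WT libraries, 11 and 9.85 in the pKO libraries, 18.2 in pInv, 8.12 in Ctrl and 11.5 in the KD library. The death receptor gene Tnfrsf10b (NCBI gene 21933) had 1.5 and 0.60 CPM in the WT libraries, 3.34 and 0.821 in the pKO libraries, 7.21 in pInv, 1.01 in Ctrl and 3.23 in KD. For Bbc3, Bax and Tnfrsf10b pInv was the highest library, and for Bax and Tnfrsf10b WT1 and WT2 lay over 2-fold apart. Pmaip1, which encodes NOXA, another BH3-only protein, went the other way, at 2.55 CPM in pInv and 2.40 in WT2 against 7.11 to 8.77 CPM in the other 5 libraries. The WT libraries held 15.0 and 6.6 CPM of Perp (NCBI gene 64058), a membrane protein of desmosomes and apoptosis, and the pKO libraries 22.9 and 22.2, with 15.2 to 19.1 in the rest.

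Triap1 (NCBI gene 69076), an inhibitor of apoptosome formation, differed more within the replicated groups than between them. It was at 47.2 CPM in WT1, 52.5 in pKO1, 59.4 in pInv and 57.7 in KD, and at 16.2 in WT2, 25.4 in pKO2 and 24.9 in Ctrl, so that replicate 1 was the higher in both WT and pKO. Aen (NCBI gene 68048), an exonuclease induced during apoptosis, was at 381 CPM in WT2, 282 in pInv and 161 to 214 in the other 5. Phlda3, which restrains AKT, was at 79.8 CPM in WT2, 63.2 in pInv and 32.2 to 54.9 in the rest, so its pair of WT libraries held both ends. Zmat3, a zinc finger RNA-binding protein, varied least of the tested members, from 37.4 to 47.2 CPM. Ei24, an ER protein, ran from 54.6 to 82.3 CPM with pInv highest, Cdip1 from 21.0 to 52.2 with KD highest, and Eda2r, a receptor of the TNF family, from 5.08 to 9.55.

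The repair genes were lower or less even. Xpc, the damage recognition factor of nucleotide excision repair, ran from 9.70 CPM in KD to 21.6 in WT2, and the translesion polymerase gene Polk from 8.25 in WT1 to 14.4 in WT2. Ddb2, the ultraviolet damage sensor, was at 1.20 to 2.62 CPM in the 5 WT, pKO and pInv libraries, at 5.08 in Ctrl and at 8.77 in KD. Of the metabolic members, Tigar (NCBI gene 319801), a fructose bisphosphatase that slows glycolysis, had 18.7 and 19.2 CPM in the WT libraries, 11 and 12.7 in the pKO libraries, 16.6 in pInv, 10.7 in Ctrl and 12 in KD, with both WT libraries on top. Fdxr, ferredoxin reductase, ran from 12.4 to 27.0 CPM and Dcxr, a xylulose reductase, from 11.9 to 24.0, each highest in WT2. Sesn2, a leucine sensor that restrains mTORC1, ran from 28.5 CPM in WT1 to 56.8 in pKO1.

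**Figure D2:**
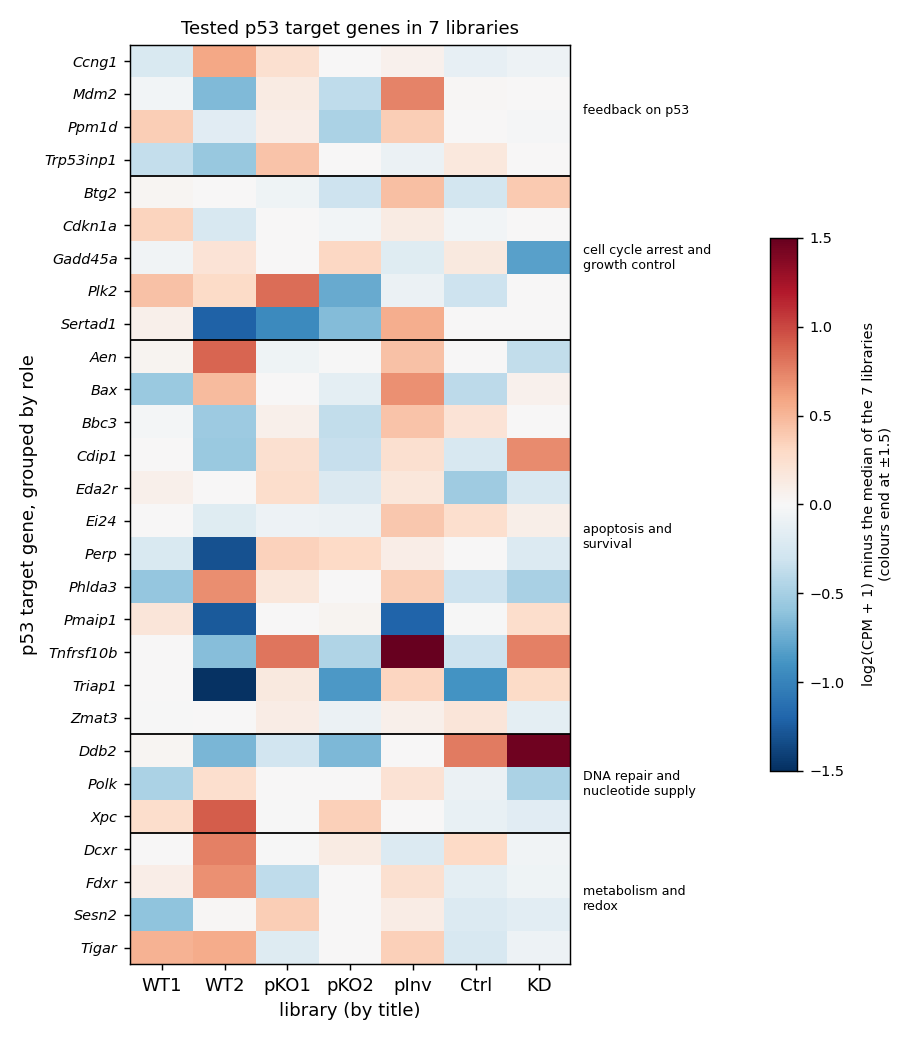
The 28 tested members (rows, grouped by role) in 7 libraries (columns). Colour gives log2(CPM + 1) minus that gene's median over the libraries. The pInv column is mostly red in the apoptosis and survival block, apart from Pmaip1, and the WT2 column holds both the deepest blue and strong red cells.

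Across the 28 tested members, 8 were highest of the 7 libraries in pInv (28.6%), where 13.8% of all tested genes were. These were Mdm2, Bax, Bbc3, Btg2, Tnfrsf10b, Ei24, Triap1 and Sertad1, of which 7 remain among the 26 without Tnfrsf10b and Plk2. WT2 was also the highest library for 8 members, against 24.7% of all tested genes, among them Ccng1, Aen, Phlda3, Xpc, Fdxr and Dcxr. It was the lowest for 12 (42.9%), against 27.6% of all genes, among them Mdm2, Cdkn1a, Bbc3, Perp, Triap1 and Sertad1. pInv was lowest for 1 member, Dcxr, against 12.5% of all genes. KD was highest for 3, Pmaip1, Ddb2 and Cdip1, against 20.1% of all genes, and lowest for 4, Gadd45a, Zmat3, Aen and Xpc, against 17.0%. WT1 and WT2 differed by 2-fold or more in 8 members (28.6%, against 25.7% of all genes). For pKO1 and pKO2 it was 3 (10.7%, against 14.0% of all genes). Tnfrsf10b is among both, and Plk2 among the 3. WT2 was below WT1 in 16 of the 28 (50.7% of all genes were), and pKO2 below pKO1 in 20 (49.4% of all). pInv also had the lowest share of 45S precursor, 12.9%, and WT2 the highest, 24.1%. The part of the 45S share or of the endoderm and streak markers in these orders was not tested.

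Setting pKO beside WT addresses the loss of the Meteor promoter. The p53 targets split evenly: 13 of 28 tested members were higher in pKO and 15 lower, where 49.3% and 50.1% of all 10265 tested genes were. The median log2 difference of the members was −0.04, and that of all genes 0.00. Over the 26 members without Tnfrsf10b and Plk2, 12 were higher and 14 lower (median −0.04). None of the 28 passed after Benjamini-Hochberg adjustment in edgeR's quasi-likelihood test, nor did any gene of the table (0% called), and 0 members were called by DESeq2 or by limma on log2(TPM + 1). The members with an unadjusted p under 0.05 in edgeR numbered 0, against 0.507% of all genes higher and 0.526% lower. The member with the smallest p was Perp, at a mean of 10.8 ± 5.93 CPM in WT and 22.5 ± 0.547 in pKO (SD, n = 2 each), a log2 difference of 0.96 (SE 0.44; unadjusted p = 0.0515 and adjusted p = 1 in edgeR's test). Trp53inp1 had a log2 difference of 0.68 (SE 0.35), Tigar of −0.64 (SE 0.36) and Aen of −0.55 (SE 0.33), and edgeR's adjusted p was 1 for each. Without WT2 the difference fell to −0.06 for Aen and to 0.58 for Perp, and without WT1 it was −0.91 for Aen and 1.64 for Perp. Definitive endoderm markers were higher in pKO for 4 of 4 genes (median log2 difference 0.85). Their sum was 381 CPM in WT1, 90.0 in WT2, 268 in pKO1 and 316 in pKO2, so WT1 lay above both pKO libraries. The part of these markers in the differences of the p53 targets was not tested.

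The pKO and WT libraries did not overlap in 6 of the 28. Trp53inp1 and Perp were above WT in both pKO libraries (12.0% of all tested genes were), and Btg2, Aen, Tigar and Fdxr below (12.9% of all). Those counts are 7.14% and 14.3% of the tested members. In all 6 the empty-vector Ctrl library was on the pKO side of both WT libraries. It had 30.5 CPM of Trp53inp1, 17.8 of Perp, 14.7 of Btg2, 207 of Aen, 10.7 of Tigar and 14.7 of Fdxr. The 6 were picked because WT and pKO did not overlap, and the share of all such genes with Ctrl on the pKO side was not taken. The position of Ctrl is therefore a description only. Mdm2 averaged 64.9 ± 19.6 CPM in WT and 75.6 ± 18.7 in pKO (SD, n = 2 each), a log2 difference of 0.21 (SE 0.33), and Cdkn1a 33.1 ± 9.42 and 30.9 ± 0.824, a difference of −0.10 (SE 0.35). Both differences were smaller than their standard errors, and the sign of each turned when 1 WT library was left out: Mdm2 to −0.04 without WT2, and Cdkn1a to 0.22 without WT1. Mdm2 turned to −0.05 without pKO1 as well.

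Setting pInv beside WT addresses the inverted promoter, with a single pInv library whose own spread is unknown. More p53 targets were higher than lower in the library titled pInv: 19 of 28 tested members had a log2 difference above 0 and 9 below, with a median log2 difference of 0.24, where 48.5% of all tested genes were higher and 50.8% lower, with a median of −0.01. pInv exceeded both WT libraries in 14 of the 28 (50%), against 29.0% of all genes, and lay below both in 5 (17.9%), against 28.0%. Over the 26 members without Tnfrsf10b and Plk2, 18 were higher and 8 lower (median 0.24), and 13 exceeded both WT libraries. No member passed after Benjamini-Hochberg adjustment in edgeR's quasi-likelihood test (0% of all genes called), and DESeq2 and limma on log2(TPM + 1) called 0 members too. Among those 26, 1 member had an unadjusted p under 0.05 in edgeR, where 0.701% of all genes were higher and 0.779% lower at that level.

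It was Mdm2, with a log2 difference of 1.06 (SE 0.39; unadjusted p = 0.0252, adjusted p = 1 in edgeR's test), with 137 CPM in pInv against 78.7 and 51.0 in WT. Tnfrsf10b, with 17 counts in pInv, 4 in WT1 and 1 in WT2, had one of 2.01 (SE 1.10), given as a description. Bbc3 differed by 0.68 (SE 0.37) and Sertad1 by 0.93 (SE 0.57), and edgeR's adjusted p was 1 for both. Without WT2 these were 0.45 and 0.46, and without WT1 Sertad1 differed by 1.76; with groups from the genotype field Bbc3 differed by 0.001. Cdkn1a, by contrast, differed by 0.04 (SE 0.43) and Ccng1 by −0.16 (SE 0.42). Without WT2 those signs turned, to −0.21 for Cdkn1a and 0.30 for Ccng1.

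By role, 10 of the 12 tested apoptosis and survival genes were higher in pInv than in WT, against 48.5% of all tested genes. Their median log2 difference was 0.49, and without Tnfrsf10b it was 9 of 11 and 0.48. The 10 include Triap1, an inhibitor of apoptosome formation. Zmat3 (0.08, SE 0.37), Eda2r (0.13, SE 0.58) and Phlda3 (0.19, SE 0.52) were higher by less than their standard errors. Of the 4 feedback genes 3 were higher (median 0.30), of the 5 tested arrest genes 3 (median 0.05), of the 3 tested repair genes 2 (median 0.25) and of the 4 tested metabolic genes 1 (median −0.18). The apoptosis and survival genes below WT in pInv were Pmaip1 (−0.91, SE 0.89) and Aen (−0.07, SE 0.40). The roles were not tested against each other. Bbc3, Pmaip1, Perp, Tnfrsf10b, Ei24, Gadd45a, Polk, Ddb2 and Tigar had expected counts over 0.05 off a whole number, so some of their reads were shared with other features and their levels are uncertain.

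Between pInv and pKO, pInv was again the higher for 19 of 28 tested members, with a median log2 difference of 0.27, where 49.4% of all genes were higher and 49.9% lower, with a median of 0.00. It exceeded both pKO libraries in 17 of 28 (60.7%), against 34.2% of all genes, and lay below both in 5 (17.9%), against 31.5%. Over the 26 members without Tnfrsf10b and Plk2, 18 were higher and 8 lower (median 0.27), and 16 exceeded both pKO libraries. This comparison shares the single pInv library with the previous one, so neither adds to the other. Again 0 members passed after adjustment in edgeR (0% of all genes called), in DESeq2 or in limma on log2(TPM + 1). In edgeR 1 member had an unadjusted p under 0.05, with 0.760% of all genes higher and 0.731% lower at that level; DESeq2 and limma gave 0. It was Sertad1, with 24.6 CPM in pInv where the pKO libraries had 8.12 and 10.3, and a log2 difference of 1.33 (SE 0.58; unadjusted p = 0.0407, adjusted p = 1 in edgeR's test).

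Mdm2 differed by 0.85 (SE 0.39) and Pmaip1 by −1.24 (SE 0.88) between pInv and pKO, and edgeR's adjusted p was 1 for each. Tnfrsf10b, again as a description, differed by 1.46 (SE 1.03), by 2.22 without pKO1 and by 0.93 without pKO2. Definitive endoderm markers were lower in pInv than in pKO for 4 of 4 genes (median −0.94), and their part in these differences was not tested. Trp53inp1 and Perp, the members above WT in both pKO libraries, were lower in pInv than in either pKO library (−0.31, SE 0.43, and −0.23, SE 0.52). In 9 members pInv was above all 4 WT and pKO libraries (32.1%; 8 of the 26), against 18.7% of all genes. These were the 8 for which pInv was highest of all 7 libraries, and Cdip1. With groups taken from the genotype field, in which pInv and pKO2 are the wild type and pKO1 the inversion, the median difference of inversion against wild type was −0.01, and Mdm2 differed by −0.16.

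**Figure D3:**
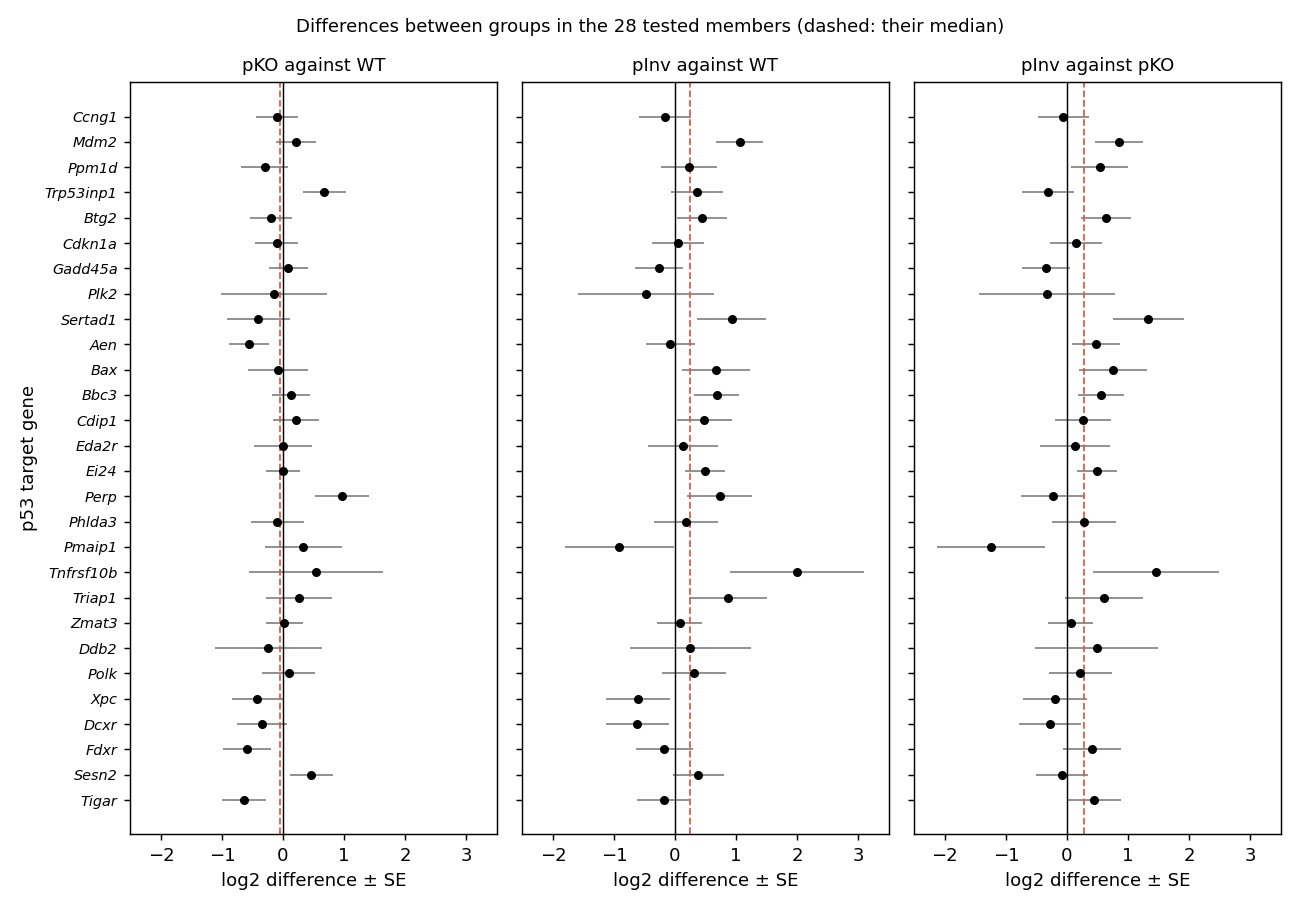
Log2 differences (x axis, points) with their standard errors (bars) for the 28 tested members in 3 comparisons. Dashed lines mark the median of the members, −0.04, 0.24 and 0.27 from left to right. Mdm2 and Sertad1 lie right of 0 in both pInv panels, and Pmaip1 left of it. Tnfrsf10b also lies right of 0 there, but it reached the filter in pInv alone.

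The knockdown was set beside its empty-vector control, with 1 library each and therefore no replicate check and no p-value. The p53 targets showed no shared shift: the median log2 ratio over the 28 tested members was 0.01, the same as over all tested genes. Of the 28, 14 were higher in KD (51.0% of all genes were) and 14 lower. Over the 26 the median was −0.01, with 12 higher and 14 lower. The KD to Ctrl ratio of Mdm2 was 0.988 (exact 95% interval from counting, 0.794 to 1.23), that of Cdkn1a 1.03 (0.718 to 1.48), that of Ccng1 1.03 (0.801 to 1.32) and that of Trp53inp1 0.894 (0.614 to 1.30). These intervals cover counting error only.

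At 20 CPM or more in either library, 15 members could be judged by size. Triap1 alone was 2-fold or more higher in KD, at 57.7 against 24.9 CPM (ratio 2.32, interval 1.66 to 3.3), where 3.93% of all genes at that level were. No member was 2-fold or more lower, against 1.08% of all. Just inside the 2-fold bounds lay Cdip1, at 52.2 against 26.4 CPM (1.98, 1.41 to 2.80), and Gadd45a, at 22.6 against 45.2 CPM (0.501, 0.346 to 0.718). Btg2 followed, at 24.0 against 14.7 CPM (1.63, 1.02 to 2.67). For Triap1, Ctrl was close to pKO2 and KD to pInv, while for Gadd45a KD was the lowest of the 7 libraries.

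Macrophage markers stood apart in KD. Of the 6 markers, 5 were above 0 in KD and summed to 221 CPM, led by Lyz2 at 175 CPM with Adgre1 at 28.6 and Csf1r at 12.5, while the pan-leukocyte gene Ptprc was at 0. In Ctrl 2 of 6 were above 0, at 1.02 CPM in all. Mesoderm markers summed to 372 CPM in KD and 92.4 in Ctrl. Pluripotency markers summed to 1173 CPM in KD and 1740 in Ctrl, and all 6 tested were lower in KD (median log2 ratio −1.20). The part of these markers in the ratios of the p53 targets was not tested.

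**Figure D4:**
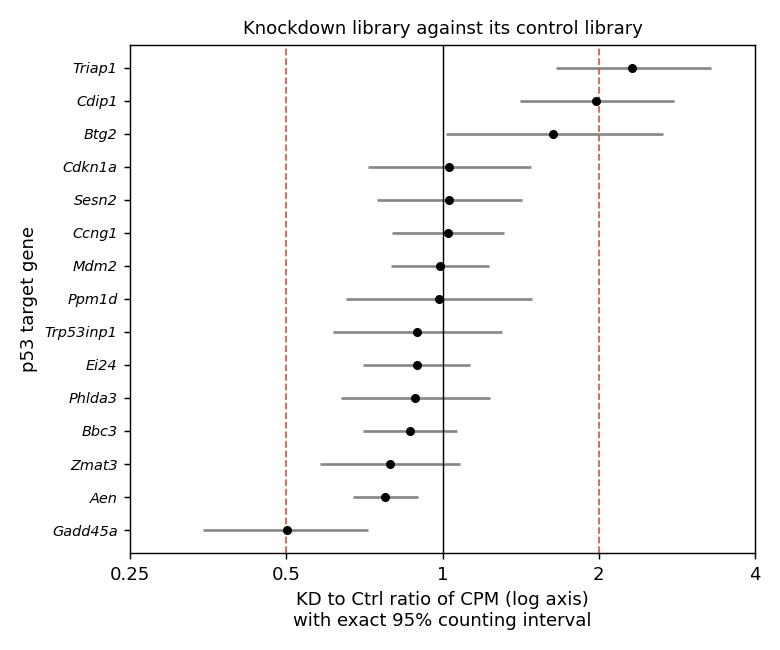
KD to Ctrl ratio (x axis, log scale) for the 15 tested members at 20 CPM or more in either library, with exact 95% counting intervals. Dashed lines mark 2-fold either way; Triap1 lies past the upper one, Cdip1 and Gadd45a at the bounds, and Mdm2, Cdkn1a and Ccng1 near 1.

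Trp53 itself (NCBI gene 22059) had 9 and 21.0 CPM in the WT libraries, 13.4 and 14.4 in the pKO libraries, 12.3 in pInv, 15.7 in Ctrl and 11.1 in KD, so the WT pair held both the lowest and the highest level. Against WT, its log2 difference was −0.23 in pInv (SE 0.59) and −0.07 in pKO (SE 0.48). Mdm4, the partner of MDM2, ran from 33.2 to 56.4 CPM, with 46.3 in pInv. Trp63 was at 0 counts in every library, and Trp73 at 0.60 to 3.82 CPM.

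Of 25 p53 regulators and relatives, 21 were tested, and edgeR called 0 of them in each of the 3 comparisons. For pInv against WT, 16 of the 21 were higher (median log2 difference 0.25), against 48.5% of all tested genes. For pKO against WT 15 were higher (median 0.07), against 49.3%, and for pInv against pKO 13 (median 0.05), against 49.4%. First among those with the smallest p was Cdkn2a, whose products include the MDM2 inhibitor ARF. It had 0.75 and 3 CPM in WT, 6.69 and 4.92 in pKO, 6.37 in pInv, 1.01 in Ctrl and 3.23 in KD. Cdkn2a reached the limit of about 10 counts only in pKO1, pKO2 and pInv, where it was high. Its rank and its place among the genes higher in pKO and pInv are therefore a description. Rchy1, a ubiquitin ligase for p53, was at 19.9 CPM in pInv and 6.97 to 13.5 in the other 6. The checkpoint kinase gene Chek1 was at 28 CPM in pInv and 15.8 to 23.4 in the other 6. For Rchy1 and Chek1, edgeR's adjusted p was 1.

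In a second list of 25 p53 targets that are no members, 17 were tested. For pInv, 6 of these were higher than WT and 11 lower, with a median log2 difference of −0.24. Against pKO 5 were higher and 12 lower (median −0.13). Of all tested genes, 48.5% were higher in pInv than in WT and 49.4% higher than in pKO. None passed in edgeR's test, and the lists were not tested against each other. Tap1, an antigen peptide transporter, had 5.62 and 6.6 CPM in the WT libraries and 1.91 and 2.05 in the pKO libraries (log2 difference −1.27, unadjusted p = 0.041, adjusted p = 1 in edgeR's test), with 4.62 to 5.52 in the other 3. Abhd4, a lipase, was at 7.11 CPM in Ctrl and 0.60 to 3.82 in the rest, and Kitl, the ligand of the receptor KIT, at 1.20 to 5.54 CPM. Abhd4 reached the limit on counts in Ctrl alone, and Kitl in KD alone.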

How the data were processed

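Polyadenylated RNA of 7 libraries was read with the Lexogen QuantSeq 3′ kit, per the labels' protocols. The authors deposited, per the file headers, expected counts, TPM and FPKM per gene from RSEM on mm9, the tool and build being named in the submitters' processing notes. These expected counts, which the authors had not normalized, were rounded here. The deposited TPM values, scaled by the authors to length and a fixed total, served in alternatives, and the deposited FPKM values were not used. No source used here gives the strand setting, so overlapping genes cannot be told apart.

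Symbols came from a RefSeq gene table of GRCm38.p6, a later build, used for names only. Features with no gene number took 0.392% to 0.535% of counts. Counts were scaled by TMM and filtered with filterByExpr (minimum of 10 counts), which kept 10265 genes, and fitted in edgeR 4.0.16 (R 4.3.3) with a coefficient per title group over all 7 libraries, leaving 2 residual degrees of freedom; single libraries were assumed to vary like WT and pKO. The log2 values given used a prior count of 2. Standard errors came from a further fit with a smaller prior count, as its log2 difference over the root of the quasi-likelihood F. At low counts a standard error can therefore belong to a larger difference than the one printed beside it. Calls took a Benjamini-Hochberg adjusted p under 0.05. KD and Ctrl were compared by size. DESeq2 1.42.0 and limma 3.58.1 were alternatives. Replicates differed beyond sampling noise (chi-square per degree of freedom of 18.3 for WT and 7.06 for pKO). The members, lists and tests were chosen with earlier results of these data known. Named were Mdm2, Cdkn1a, Ccng1, Trp53inp1 and Trp53, the 4 members with the smallest p per comparison (for KD, the largest ratio), and up to 3 genes per further list; the other members are given by role.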

Additional observations from a re-analysis of the deposited data

How the results depend on the processing

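The number of members called stayed at 0 each way for pKO against WT, pInv against WT and pInv against pKO under every alternative run. With any 1 WT or pKO library left out, the members' median stayed above 0 for pInv against WT (0.19 to 0.28) and pInv against pKO (0.18 to 0.34), and ran from −0.19 to 0.026 for pKO against WT. Leaving out Tnfrsf10b and Plk2, chosen after seeing the data, gave medians of 0.24 for pInv against WT, 0.27 for pInv against pKO, −0.04 for pKO against WT and, for KD against Ctrl, −0.01. The single pInv, Ctrl and KD libraries could not be left out. On log2(TPM + 1) the median was 0.31 for pInv against WT, 0.055 for pKO against WT and 0.077 for KD against Ctrl. For pInv against pKO it was 0.21 with totals without the 45S precursor and 0.22 without the filter. KD against Ctrl had 2 members 2-fold or more higher with totals without 45S and on log2(TPM + 1), and 3 higher and 1 lower at 1.5-fold. A promoter match was held by 40% of members for the exact half-site against 12% for the full site.

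Groups from the genotype field gave medians of −0.013 for inversion against wild type and 0.013 for inversion against knockout. There, knockout against wild type turned for Mdm2 (−0.61), Cdkn1a (0.04), Ccng1 (0.19), Trp53inp1 (−0.41), Trp53 (0.13), Perp (−0.84), Tigar (0.36) and Aen (0.28). Inversion against wild type turned for Mdm2 (−0.16), Cdkn1a (−0.037), Ccng1 (0.21), Trp53 (0.004), Tnfrsf10b (−0.21) and Sertad1 (−1.02), and inversion against knockout for Cdkn1a (−0.076), Ccng1 (0.016), Trp53inp1 (0.88), Sertad1 (−0.57) and Pmaip1 (0.32). On log2(TPM + 1), pKO against WT turned for Ccng1 (0.008) and Trp53 (0.069). The cause was not tested.

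With 1 library left out, pKO against WT ran from −0.054 to 0.56 for Mdm2, −0.33 to 0.22 for Cdkn1a, −0.46 to 0.38 for Ccng1 and −0.57 to 0.60 for Trp53. pInv against WT ran from −0.21 to 0.37 for Cdkn1a, −0.52 to 0.30 for Ccng1 and −0.73 to 0.41 for Trp53, and pInv against pKO from −0.18 to 0.04 for Ccng1. For Mdm2, pInv against WT stayed between 0.79 and 1.41.

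WT and pKO libraries share replicate numbers only. Over 10265 genes, the difference of WT1 minus WT2 correlated at 0.308 with that of pKO1 minus pKO2. With the replicate number as a block, the members' median for pKO against WT was 0.005, with 0 members called. In edgeR 2 members and 296 genes then had an unadjusted p under 0.05, against 0 and 106 without the block.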
